A study of Mus musculus with 12 samples.

Results

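Neutrophil precursors at the promyelocyte stage build the primary (azurophil) granule, and 8 genes of this compartment were followed here through MLL-AF9 leukemia cells grown in 3 kinds of host mice. They are Mpo, Elane, Prtn3, Ctsg, Prss57, Ctsc, Srgn and Ms4a3, 8 of the 55401 genes measured and of the 15026 tested, and all 8 passed the filter on low values. They were listed for their part in the granule or the promyelocyte, but also selected on the host differences of these same libraries, that of Mpo in particular. Their differences between hosts are therefore a description. How many of the 8 met the limits applied to all genes is given once, beside the share of all genes that did, and is no test of these genes.

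The study asked how immune cells of the host shape acute myeloid leukemia. Mouse bone marrow progenitors were transduced with the retroviral vector pMSCV-MLL-AF9-pgk-EGFP, which carries the fusion oncogene together with GFP, and the leukemia was kept going by more than 10 serial transplantations. The cells were then given to female mice aged 8 to 12 weeks. The hosts were WT (C57BL/6), Rag2-/- (without mature T and B cells) or NSG (without T, B and NK cells). RNA was taken from GFP+ leukemia cells (3 times 1000000 per sample) of moribund mice, with 4 libraries per host. All 12 libraries thus carry the same oncogene, and healthy myeloid cells were not analysed here. Each library was labelled as a separate sample of its host, and p-values measure the spread between these samples.

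Primary granules are filled early in neutrophil development and hold myeloperoxidase, the heme enzyme that makes hypochlorous acid, and a family of related serine proteases that digest microbes. The proteases are made as inactive precursors, cathepsin C cuts off a short activating peptide, and the negatively charged proteoglycan serglycin holds the cationic enzymes in the granule. Transcription of the myeloperoxidase and serine protease genes peaks in promyelocytes under PU.1, C/EBP, RUNX1 and MYB and ceases before the later granules form. In myeloid leukemia myeloperoxidase is a standard lineage marker.

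Values are TPM (a level per length of transcript, scaled to the same total in every library), which the authors calculated from gene counts. Whole reads could be recovered from them with exon lengths, in units of 1000000 reads at 16.0 to 27.1 (WT), 17.4 to 42.8 (Rag2-/-) and 19.0 to 33.1 (NSG) per library, where the mates of a pair were counted separately. All 7 leukemia markers looked at (among them Hoxa9, Meis1, Itgam and Kit) were above 0 in every library. That is a low bar, which 19229 to 21835 genes passed per library. Hoxa9 lay at 192 to 234 TPM and Meis1 at 54.2 to 63.3 TPM over all libraries. For Rag2-/- against WT, 1 of the 7 met the limits given below with higher values. Defining genes of lymphoid, eosinophil and erythroid cells lay mostly at or near 0, with Cd3e and Ms4a1 at 0 in every library and the summed 5 eosinophil markers at up to 4.03, 6 T and NK cell markers at up to 3.98 and 5 erythroid markers at up to 9.70 TPM. These low sums were higher in every Rag2-/- than in any WT library. They ran at 1.79 to 4.03 against 0.418 to 1.32 TPM (eosinophil) and 1.60 to 3.98 against 0.268 to 1.22 (T and NK cell). The erythroid sums ran at 2.81 to 8.48 against 0.963 to 2.50 TPM, and NSG libraries overlapped both hosts in all of these sums. The sum of the 5 B cell markers, 125 to 222 TPM, was nearly all Ighm. Markers of mature neutrophils (225 to 1475 TPM in sum), macrophages (55.5 to 114) and mast cells and basophils (63.7 to 102) were far from 0 and are taken up beside the host differences. Single genes carried much of these sums. In WT and NSG libraries most of the neutrophil sum was Csf3r (234 to 261 TPM in WT). Vcam1 and Adgre1 made up most of the macrophage sum, and Mcpt8 and Gata2 most of the mast cell and basophil sum.

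The proteases Elane, Prtn3 and Prss57 lie inside 106742 bases of chromosome 10. Stretches ahead of an exon near an annotated promoter are shown for the peroxidase and the 3 most abundant proteases, because the level of Mpo differed between hosts by more than that of the proteases made beside it. They run 5′ to 3′ and come from RefSeq promoter windows on GRCm38.p6, the same genome build as mm10, to which the authors aligned their reads. Each stretch ends where the first GENCODE M21 exon of its window begins. For Prtn3 the window lies inside the annotated gene (79874476 to 79883174), so its stretch is not ahead of the first annotated exon of that gene. Capitals mark matches on either strand to letters that PU.1 (GAGGAA), C/EBP (TTNNGNAA), RUNX (TGTGGT), MYB (AACNG) and the TATA box (TATAAA) are known to prefer.
Mpo, chr11:87793534-87793580, plus strand: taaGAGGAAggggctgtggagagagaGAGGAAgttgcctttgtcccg
Elane, chr10:79886062-79886246, plus strand: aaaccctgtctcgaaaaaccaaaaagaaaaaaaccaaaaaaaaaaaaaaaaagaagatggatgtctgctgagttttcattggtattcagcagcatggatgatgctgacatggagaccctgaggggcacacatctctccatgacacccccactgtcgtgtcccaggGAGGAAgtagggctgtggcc
Prtn3, chr10:79879417-79879613, plus strand: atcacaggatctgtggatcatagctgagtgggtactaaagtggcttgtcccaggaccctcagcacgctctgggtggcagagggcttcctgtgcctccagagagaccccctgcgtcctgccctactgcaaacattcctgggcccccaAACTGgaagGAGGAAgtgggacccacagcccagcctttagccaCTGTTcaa
Ctsg, chr14:56102575-56102824, minus strand: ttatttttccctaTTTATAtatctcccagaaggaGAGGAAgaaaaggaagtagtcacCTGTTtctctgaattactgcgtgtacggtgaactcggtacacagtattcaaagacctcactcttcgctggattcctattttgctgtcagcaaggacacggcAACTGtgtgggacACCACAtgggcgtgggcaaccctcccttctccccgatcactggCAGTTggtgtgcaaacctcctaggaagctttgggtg

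The PU.1 letters stood in all 4 stretches, and in Mpo they occurred at 2 places. Over the whole RefSeq windows, 250 bases before to 50 after each start, 7 of the 8 genes had an entry, with 8 windows in all. The PU.1 letters were found in 6 of these 7 genes, against 28.3% of all 32851 windows, and the MYB letters, which are short, in 6 of 7 against 80.3%. The RUNX letters were found in 2 of the 7 genes against 16.8% of all windows, the C/EBP letters in 2 against 40.7% and the TATA box in 2 against 13.6%. In the Srgn windows, matches to the C/EBP letters overlap each other and those to the MYB letters, so that they are not separate places. These are matches of letters and not binding sites.

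The order of the levels was nearly the same in every library. In 11 of 12 libraries it ran from Elane through Ctsg, Prtn3, Srgn, Ms4a3, Mpo and Prss57 down to Ctsc, and in Rag2-/- replicate 3 Mpo stood below Prss57. The lowest library of each gene exceeded the highest of the gene after it for all neighbours in this order but Mpo and Prss57, whose ranges of 70.1 to 710.4 TPM and 73.2 to 138 TPM overlapped. Elane was the most, the second or the third most abundant transcript of each library, and Ctsg lay between place 3 and place 6. Ctsc, the activator of the proteases, lay between place 4562 and place 6802. Summed, the 8 genes made up 2.32% ± 0.05 of the TPM in WT (SD, n = 4), 2.09% ± 0.20 in Rag2-/- and 2.44% ± 0.31 in NSG libraries. The Rag2-/- libraries held 1.94%, 2.05%, 2.01% and 2.38%, so that replicates 1 to 3 lay below the WT range of 2.25% to 2.37% and replicate 4 just above it, and NSG replicate 3 (2.05%) lay below all WT libraries.

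**Figure D1:**
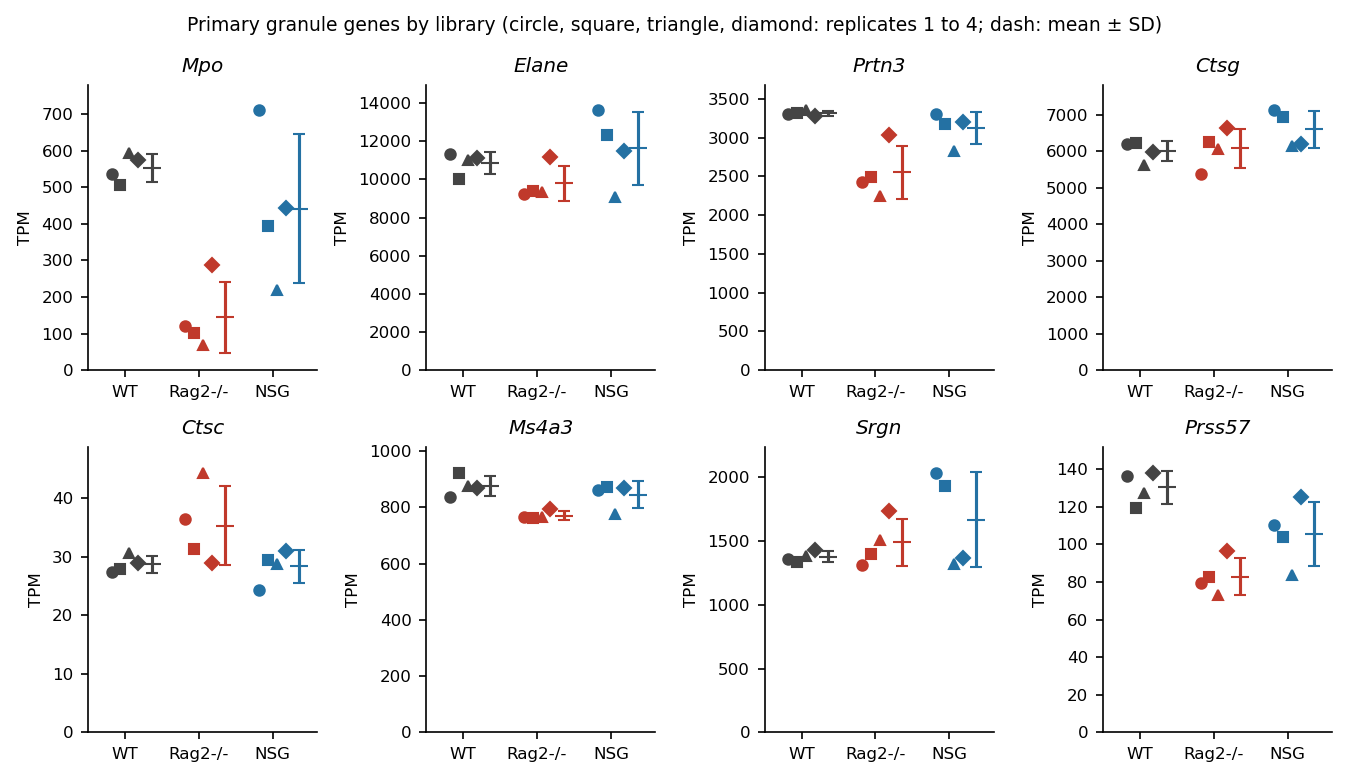
TPM (linear axes from 0) of the 8 genes in each library of the 3 hosts, with circle, square, triangle and diamond for replicates 1 to 4 and a dash with bars for the mean ± SD of 4 libraries. Mpo ranged from 70.1 to 287 TPM in Rag2-/- and from 508 to 593 TPM in WT libraries, while Ctsg overlapped between all 3 hosts.

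Mpo (ENSMUSG00000009350, chromosome 11, 87793581 to 87804413, plus strand, mm10) encodes myeloperoxidase. In WT libraries it stood at 537, 508, 593 and 574 TPM (replicates 1 to 4). In Rag2-/- libraries it stood at 121, 102, 70.1 and 287 TPM. In NSG libraries it stood at 710.4, 394, 219 and 444 TPM. The WT libraries lay close together, all above the 4 Rag2-/- libraries, whereas the NSG libraries spanned both, with replicate 1 above every WT library and replicate 3 below Rag2-/- replicate 4. The coefficient of variation was 6.90% in WT, 66.9% in Rag2-/- and 46.0% in NSG libraries. These levels rested on 1174 to 15879 reads, whose counting error, with the mates of a pair taken as 1 count, was 1.42% of the level in WT, 2.85% in Rag2-/- and 1.58% in NSG libraries.

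The mean of Mpo in WT libraries was 553 ± 38.1 TPM, against 145 ± 97.0 in Rag2-/- and 442 ± 203 in NSG libraries (SD, n = 4 each). On the log2(TPM + 1) scale, the fit over all 12 libraries gave a difference of −2.13 (SE 0.39) for Rag2-/- against WT, a 4.37-fold lower level. It gave −1.69 (SE 0.39) for Rag2-/- against NSG and −0.44 (SE 0.39) for NSG against WT. Rag2-/- replicate 4 weighed on these values, and without it the first was −2.52 and the second −2.08.

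Genes other than the 8 are said to be called where a limma Benjamini-Hochberg adjusted p-value was under 0.05 and the log2 difference beyond 0.5. The genomic neighbours of Mpo did not carry comparable transcript levels. Tspoap1, 7652 bases before Mpo, was at 67.1 TPM in WT, 51.4 in Rag2-/- and 64.8 in NSG libraries (difference from WT −0.37, SE 0.16, adjusted p = 0.205 in limma). Lpo, the gene of the related lactoperoxidase 2014 bases after Mpo, was at most 0.985 TPM and was not tested. As a share of Elane, the most abundant of the proteases, Mpo ran at 4.74% to 5.37% in WT, 0.749% to 2.57% in Rag2-/- and 2.41% to 5.22% in NSG libraries. Mpo thus stood lower against Elane in every Rag2-/- library than in any WT library.

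Elane (ENSMUSG00000020125, chromosome 10, 79886247 to 79888215, plus strand) encodes neutrophil elastase. It stood at 11325, 10016, 11040.4 and 11104 TPM in WT libraries. It stood at 9241, 9408, 9348 and 11157 TPM in Rag2-/- libraries. It stood at 13614, 12309, 9099 and 11465 TPM in NSG libraries. Rag2-/- replicates 1 to 3 lay below all WT libraries and replicate 4 inside the WT range, so the hosts overlapped, and NSG libraries held both the highest and the lowest value of all. The differences were −0.15 (SE 0.12) for Rag2-/- against WT, −0.24 (SE 0.12) for Rag2-/- against NSG and 0.08 (SE 0.12) for NSG against WT. Its neighbour on the other side from Prtn3 is Cfd, which encodes complement factor D, at means of 4.35 TPM in WT, 3.40 in Rag2-/- and 5.72 in NSG libraries.

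Prtn3 (ENSMUSG00000057729, chromosome 10, 79874476 to 79883174, plus strand) encodes proteinase 3 and ends 3072 bases before Elane. It stood at 3307, 3314, 3351 and 3281 TPM in WT libraries. It stood at 2431, 2499, 2242 and 3035 TPM in Rag2-/- libraries. It stood at 3302, 3178, 2829 and 3206 TPM in NSG libraries. The WT libraries had a coefficient of variation of 0.878%, near the counting error of 0.811%, and all 4 Rag2-/- libraries lay below them, while NSG replicate 3 again was the lowest of its host. The difference was −0.39 (SE 0.09) for Rag2-/- against WT, with −0.30 (SE 0.09) against NSG and −0.09 (SE 0.09) for NSG against WT. The annotated start of Prtn3 overlaps the start of Plppr3 on the other strand, at 273 TPM in WT and 214 in Rag2-/- libraries, and whether reads were counted by strand is not given in the sources used here.

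Ctsg (ENSMUSG00000040314, chromosome 14, 56099881 to 56102574, minus strand) encodes cathepsin G, the chymotrypsin-like protease of the granule. It stood at 6198, 6239.9, 5618 and 5982 TPM in WT libraries. It stood at 5378, 6247, 6051 and 6647 TPM in Rag2-/- libraries. It stood at 7121, 6943, 6148 and 6194 TPM in NSG libraries. Rag2-/- libraries lay on both sides of the WT range, and the difference was 0.01 (SE 0.08) against WT and −0.12 (SE 0.08) against NSG. NSG against WT gave 0.13 (SE 0.08). Of its neighbours, Gzme was listed at 0 in every library, and Mcpt8, a basophil protease, was higher in Rag2-/- than in WT libraries (0.58, SE 0.12, adjusted p = 0.0338 in limma), at 58.5 against 39.2 TPM, a call that was lost without any 1 of the Rag2-/- libraries or of WT replicates 2 to 4, without a filter and without a trend (adjusted p in limma up to 0.117).

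Prss57 (ENSMUSG00000020323, chromosome 10, 79781474 to 79790961, minus strand) encodes neutrophil serine protease 4, and lies 83514 bases before Prtn3. It stood at 136, 119, 127 and 138 TPM in WT libraries. It stood at 79.4, 82.6, 73.2 and 96.2 TPM in Rag2-/- libraries. It stood at 110.2, 104, 83.8 and 125 TPM in NSG libraries. All 4 Rag2-/- libraries lay below all 4 WT libraries, and NSG replicate 3 lay inside the Rag2-/- range. The difference was −0.65 (SE 0.11) for Rag2-/- against WT, a 1.57-fold lower level. It was −0.34 (SE 0.11) against NSG and −0.31 (SE 0.11) for NSG against WT. The end of Prss57 overlaps Fstl3 on the other strand, which reached at most 8.11 TPM, and the other neighbour Palm was at 154 TPM in WT and 129 in Rag2-/- libraries (−0.26, SE 0.08, adjusted p = 0.0834 in limma).

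**Figure D2:**
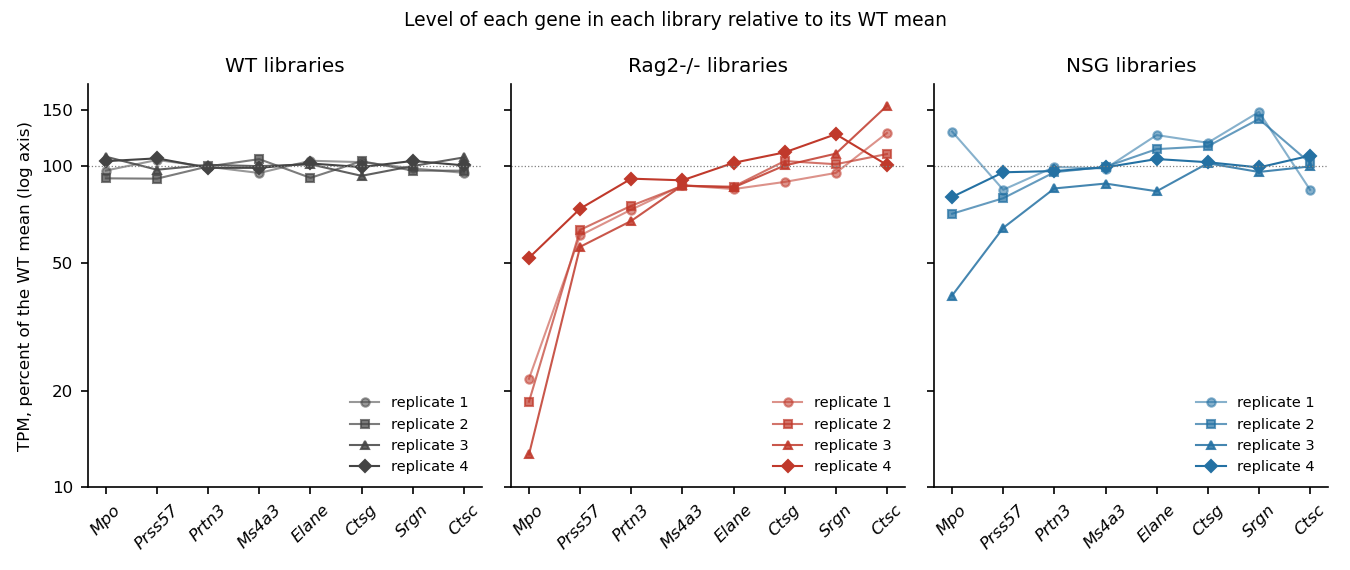
Level of each gene in each library as a percentage of its mean over the 4 WT libraries (log axis), with 1 line per library and 1 panel per host. Mpo in Rag2-/- libraries lay at 12.7% to 51.9% of the WT mean and Prss57 at 56.2% to 73.9%. Replicate 4 was the highest of the Rag2-/- libraries for every gene but Ctsc. In NSG libraries replicate 3 was the lowest for every gene but Ctsc, among them Mpo (39.6%), Prss57 (64.4%) and Prtn3 (85.4%).

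Ctsc (ENSMUSG00000030560, chromosome 7, 88278085 to 88310888, plus strand) encodes cathepsin C, the dipeptidyl peptidase that activates the serine proteases. It stood at 27.4, 27.8, 30.6 and 28.9 TPM in WT libraries. It stood at 36.5, 31.4, 44.4 and 29.0 TPM in Rag2-/- libraries. It stood at 24.3, 29.4, 28.7 and 31.0 TPM in NSG libraries. In Rag2-/- mice 3 of the 4 libraries lay above all WT libraries, and replicate 3, the lowest of all for Mpo, was the highest of all for Ctsc. The difference was 0.27 (SE 0.12) against WT and 0.29 (SE 0.12) against NSG, and −0.02 (SE 0.12) for NSG against WT. In WT libraries the coefficient of variation of 4.98% was near the counting error of 4.77%. Its neighbours Grm5 and Rab38 lay far off, at 0 and at up to 1.70 TPM.

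Srgn (ENSMUSG00000020077, chromosome 10, 62493833 to 62527451, minus strand) encodes serglycin. It stood at 1358, 1337, 1381 and 1433 TPM in WT libraries. It stood at 1315, 1399, 1509 and 1736 TPM in Rag2-/- libraries. It stood at 2036, 1936, 1324 and 1367 TPM in NSG libraries. The NSG libraries fell into a high pair and a pair at the WT level, and the hosts overlapped throughout. The differences were 0.11 (SE 0.14) for Rag2-/- against WT, −0.14 (SE 0.14) against NSG and 0.25 (SE 0.14) for NSG against WT. Its neighbours Vps26a (0.13, SE 0.09, adjusted p = 0.421 in limma) and Kif1bp (−0.02, SE 0.10, adjusted p = 0.922) were not called for Rag2-/- against WT.

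Ms4a3 (ENSMUSG00000024681, chromosome 19, 11629496 to 11640851, minus strand) encodes a membrane protein of granulocyte and monocyte progenitors and is used to trace them. It stood at 836, 923, 878 and 868 TPM in WT libraries. It stood at 765, 762, 765 and 793 TPM in Rag2-/- libraries. It stood at 863, 874, 775 and 871 TPM in NSG libraries. The Rag2-/- libraries had a coefficient of variation of 1.90% and all lay below the WT libraries, and NSG replicate 3 was again the lowest of its host. The difference was −0.18 (SE 0.05) for Rag2-/- against WT, −0.13 (SE 0.05) against NSG and −0.05 (SE 0.05) for NSG against WT. Its neighbours Ms4a2, the beta chain of the IgE receptor, and Oosp2 were at means of up to 5.16 and 3.08 TPM.

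Against WT, 2 of the 8 genes (Mpo and Prss57) met the limits with lower values in Rag2-/- libraries and 0 with higher values, where 0.326% of all genes tested were called lower and 1.14% higher. Mpo did not meet them when replicate 2 or 3 of WT or of Rag2-/- was left out, nor did Prss57 without Rag2-/- replicate 2 or 3. In 4 of the 8 (Mpo, Prtn3, Ms4a3 and Prss57) every Rag2-/- library lay below every WT library, as did 6.72% of all genes, and in 0 of the 8 above, as did 10.2%. Against NSG, 0 of the 8 genes met the limits in limma (but Mpo did without Rag2-/- replicate 4 or NSG replicate 3), where 0.193% of all genes were called higher and 0.02% lower. In 0 of the 8 did the libraries of Rag2-/- and NSG part, as they did with Rag2-/- higher in 4.34% and lower in 2.25% of all genes. For NSG against WT, 0 of the 8 met the limits in limma, as for all genes (0% higher and 0% lower), and 0 parted, against 2.21% with NSG higher and 2.38% with NSG lower. At an unadjusted p-value under 0.05, 5 of the 8 lay for Rag2-/- against WT, 5 against NSG and 1 for NSG against WT, and of all 15026 genes tested 3146, 1888 and 1377. With voom on the recovered reads, Mpo also met the limits for Rag2-/- against NSG, the number of the 8 for NSG against WT stayed at 0, and 1 gene of all was called there. Since the genes were listed with the host differences known, these numbers say nothing further about them.

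The median difference of the 8 genes was −0.17 for Rag2-/- against WT beside 0.02 over all genes tested, −0.19 beside 0.01 against NSG and −0.04 beside 0.00 for NSG against WT. The signs were mixed, with 3 genes above 0 and 5 below 0 against WT, 1 above and 7 below against NSG, and 3 above and 5 below for NSG against WT. The comparisons share libraries and are not independent of each other. In bulk RNA, fewer cells with a transcript and less of it per cell cannot be told apart.

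Markers of mature neutrophils moved with the hosts as well. Of 6 such markers (S100a8, S100a9, Cxcr2, Csf3r, Retnlg and Mmp9), 5 were higher in Rag2-/- than in WT libraries, and their summed level per library was 514 to 1475 TPM with Rag2-/- hosts, 287 to 339 with WT hosts and 225 to 353 with NSG hosts. Of 6 macrophage markers 1 was called higher (C1qc, at 2.76 to 5.92 TPM in Rag2-/- libraries, a call lost without any 1 of Rag2-/- replicates 1 to 3 or WT replicates 1, 2 and 4 and without a filter), with sums of 101 to 114, 90.0 to 96.8 and 55.5 to 113 TPM. Of 6 mast cell and basophil markers 1 was called higher (Mcpt8), with sums of 94.9 to 98.0, 63.7 to 79.0 and 69.6 to 102 TPM. Fcer1a, also on that list, was at 0 in every WT and NSG library and in 3 Rag2-/- libraries, and reached at most 0.201 TPM. The part of these neutrophil, macrophage, mast cell and basophil markers in the lower Mpo and Prss57 of Rag2-/- libraries was not tested.

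**Figure D3:**
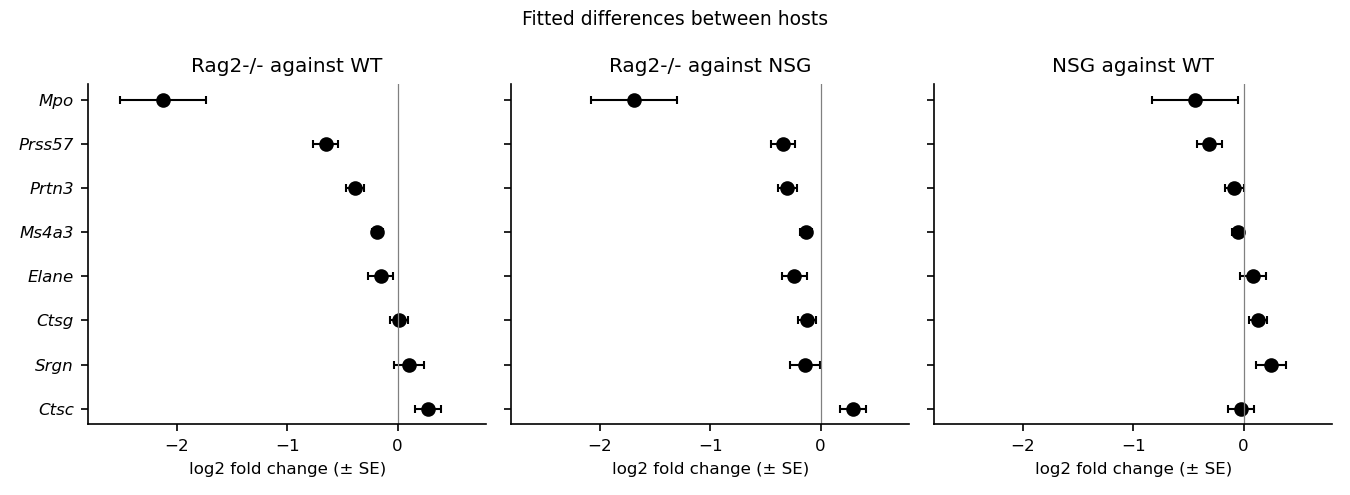
Fitted log2 fold change (log2(TPM + 1) scale, x axis) with its SE for each gene in the 3 comparisons. Mpo lay at −2.13, −1.69 and −0.44, and the other 7 genes between −0.65 and 0.29.

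Whether the genes moved together was looked at within hosts, as each library's deviation from the mean of its own host, which does not hold the host difference. Over the 12 libraries, r was above 0 in 21 of the 28 pairs of genes. The 7 pairs below 0 were those with Ctsc. Within single hosts, with 4 libraries each, signs differed, and in WT libraries they were mixed. For example, in WT Elane and Ms4a3 had an r of −0.94, Mpo and Ctsg −0.90, and Elane and Prss57 0.89. The same pairs had 0.99, 0.48 and 0.90 within Rag2-/- and 0.88, 0.72 and 0.69 within NSG libraries. Elane and Srgn were the 1 pair that passed an exact permutation test within hosts after adjustment over the 28 pairs. Its Pearson r was 0.84 (exact two-sided p = 0.00116, adjusted p = 0.0324, over all arrangements within hosts) and its Spearman rho 0.81 (exact p = 0.00579). As high an r was found for 2.27% of the tested genes with Elane and for 3.02% with Srgn. Its r was above 0 in each of the 3 hosts and 0.70 without the 2 libraries farthest out, NSG replicates 1 and 3. No pair passed (0 of 28) when WT replicate 2, Rag2-/- replicate 1, 2 or 4 or NSG replicate 1, 2 or 3 was left out, and 3 pairs passed without NSG replicate 4.

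The highest r among the 28 pairs was that of Mpo and Prtn3, at 0.95 (exact permutation p = 0.00434, adjusted p = 0.0608) with a rho of 0.87 (exact p = 0.0109). It did not pass after adjustment. Without Rag2-/- replicate 4 and NSG replicate 1, r was 0.92, and it was 0.98 within Rag2-/-, 0.95 within NSG and 0.25 within WT libraries. In WT libraries the coefficient of variation of Prtn3 was 0.878%, or 1.08 times its counting error, and that of Mpo 6.90%, or 4.87 times. Beside all other tested genes, Prtn3 had the second highest r with Mpo and Mpo the second highest with Prtn3. Mpo and Elane had an r of 0.84 (exact permutation p = 0.00933, adjusted p = 0.0699), Prtn3 and Prss57 0.78 (exact permutation p = 0.00998, adjusted p = 0.0699), and Mpo and Prss57 0.78 (exact permutation p = 0.0236, adjusted p = 0.110). Mpo and Ctsc had an r of −0.69 (exact permutation p = 0.0839, adjusted p = 0.181), which was −0.32 without Rag2-/- replicate 4 and NSG replicate 1. Its sign was not the same in every host, with 0.86 within WT, −0.81 within Rag2-/- and −0.57 within NSG libraries. At an unadjusted p-value under 0.05, 9 of the 28 pairs passed.

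**Figure D4:**
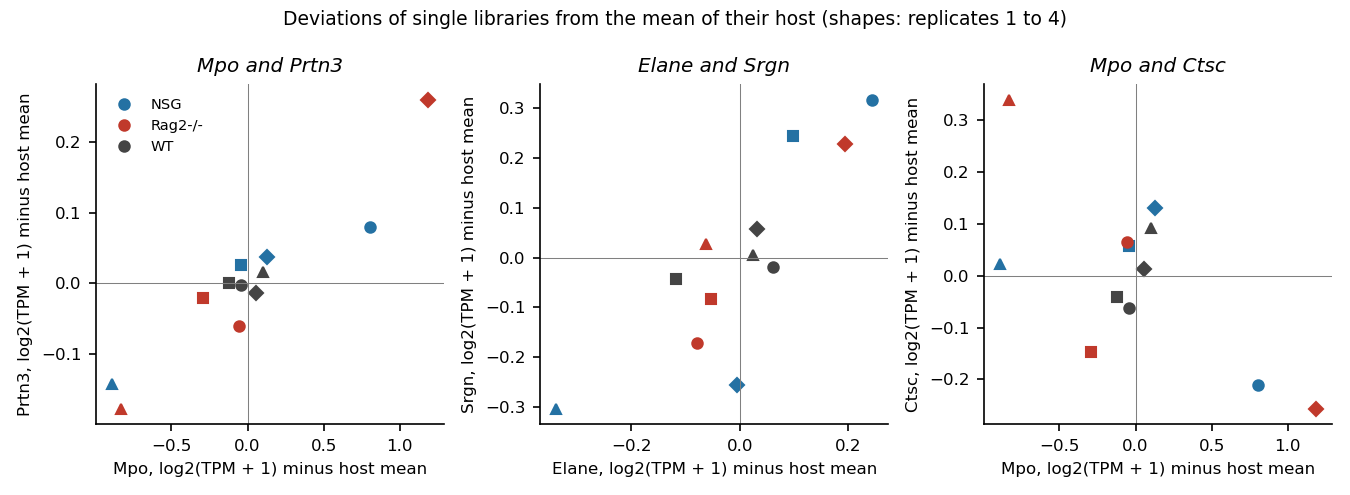
Deviation of each library from the mean of its host on the log2(TPM + 1) scale for 3 pairs of genes, with colours for hosts and shapes for replicates 1 to 4. Mpo and Prtn3 had an r of 0.95, Elane and Srgn 0.84, and Mpo and Ctsc −0.69 (but 0.86 within WT libraries), and Rag2-/- replicates 3 and 4 and NSG replicates 1 and 3 lie farthest out for Mpo.

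Over all 12 libraries without centring, the tested gene most like Mpo was Prtn3 (r = 0.99), followed by Mapkapk3 (0.95), Dnmt3a (0.95), Kif17 (0.94) and Gpr179 (0.94). For Prtn3 they were Mpo, Egln3, Mapkapk3, Gpr179 and Dnmt3a (0.99 to 0.94), and for Prss57 they were Mapkapk3, Sirt3, Col6a3, Mtr and Wbp1 (0.97 to 0.93). For Ms4a3 they were Fkbp4, Colq, Fam136a, Plac8 and Dnmt3a (0.96 to 0.93). For Elane they were Atg12, Dpp4, Usp11, Ganc and Glrp1 (0.96 to 0.90), and for Srgn Tbc1d19, Tmco1, Ube2b, Idh3g and Smim10l1 (0.96 to 0.94). For Ctsg they were Gm4332, Rpl23a-ps3, Ubl5, Rgp1 and Hdac1 (0.89 to 0.86), and for Ctsc Tmem268, Irf5, Capn15, Psap and Mxd3 (0.92 to 0.88). Mapkapk3 and Dnmt3a thus stood in 3 of these lists, each of which was picked from 15026 genes over 12 libraries of 3 hosts.

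The other genes of the pathway were counted by lists, tested in the same limma fit and adjusted over all genes. Of 51 listed genes that were tested, 7 were higher and 0 lower in Rag2-/- than in WT libraries, 5 higher and 0 lower than in NSG libraries, and 0 were called for NSG against WT. At an unadjusted p-value under 0.05 the numbers were 22, 17 and 8, beside 3146, 1888 and 1377 of all 15026 genes tested, and voom called 7, 4 and 0 of the listed genes. In the list of lysosomal-type granule content, Cd68, a glycoprotein of the granule and lysosome membrane, was the 1 of 11 tested genes called, higher in Rag2-/- than in WT libraries by 0.55 (SE 0.11, adjusted p = 0.0240), at 126 ± 15.2 against 85.8 ± 10.3 TPM. This call was lost without a filter, with the replicate block and when replicate 2 or 3 of WT or of Rag2-/- was left out, where the adjusted p in limma reached 0.0866. Lyz2, which encodes lysozyme, was the most abundant of that list, at 1836 ± 256 (Rag2-/-), 1365 ± 72.9 (WT) and 1319 ± 244 TPM (NSG), a difference of 0.42 from WT (SE 0.13, adjusted p = 0.101), followed over the 12 libraries by the lysosomal hexosaminidase gene Hexa (−0.39, SE 0.12, adjusted p = 0.0994). In Rag2-/- libraries Ctsd, the gene of cathepsin D, averaged 421 TPM and lay above Hexa, at 389 TPM.

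Of the proteins that hold the proteases in check, 7 of 12 were tested and 0 were called by limma or voom in any comparison, with 0 at an unadjusted p-value under 0.05 for Rag2-/- against WT, 1 against NSG and 3 for NSG against WT. Slpi, the secreted inhibitor of elastase and cathepsin G, averaged 2881 ± 437 TPM with Rag2-/- hosts, 3491 ± 137 with WT hosts and 2801 ± 659 with NSG hosts (against WT −0.29, SE 0.15, adjusted p = 0.304 in limma), and Cst3, which encodes cystatin C, was next in abundance (−0.12, SE 0.08, adjusted p = 0.396 in limma). Of the transcription factors, 11 of 12 were tested and 0 called by limma or voom, with 4, 2 and 0 at an unadjusted p-value under 0.05. Spi1, the gene of PU.1, averaged 623 ± 29.8 TPM with Rag2-/- hosts, 558 ± 15.9 with WT hosts and 577 ± 7.04 with NSG hosts (against WT 0.16, SE 0.04, adjusted p = 0.0751 in limma). Cebpa, the gene of C/EBP alpha, was at 203 to 231 TPM in Rag2-/-, 276 to 302 in WT and, overlapping both, 184 to 308 in NSG (against WT −0.36, SE 0.14, adjusted p = 0.157 in limma).

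Myeloperoxidase needs heme and is folded with the help of calreticulin and calnexin. All 8 genes of heme synthesis were tested and 0 called by limma or voom, with 1, 0 and 1 at an unadjusted p-value under 0.05. Alas1, the rate-limiting enzyme, averaged 438 ± 13.1 TPM with Rag2-/- hosts, 399 ± 21.7 with WT hosts and 409.9 ± 55.4 with NSG hosts (against WT 0.14, SE 0.08, adjusted p = 0.385 in limma). All 6 chaperone genes were tested and 0 called by limma or voom, with 2, 0 and 0 at an unadjusted p-value under 0.05. Calr, the gene of calreticulin, averaged 2569 ± 238 TPM with Rag2-/- hosts, 2457 ± 68.8 with WT hosts and 2497 ± 333 with NSG hosts (against WT 0.06, SE 0.10, adjusted p = 0.766 in limma), and Hspa5 was at 1014 ± 218, 765 ± 91.3 and 847 ± 247 TPM (against WT 0.39, SE 0.20, adjusted p = 0.298 in limma).

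The list of later (secondary and tertiary) granule proteins had the most calls, and it is known from earlier results of these libraries. Of its 8 genes, 6 were higher in Rag2-/- than in WT libraries (Ltf, Camp, Ngp, Lcn2, Mmp8 and Mmp9), 5 of these (without Lcn2) also higher than in NSG libraries, and 0 were called for NSG against WT by limma or voom, where 2 had an unadjusted p-value under 0.05. Ltf, the gene of lactoferrin, stood at 49.1, 28.1, 26.5 and 11.5 TPM in Rag2-/- libraries and at 1.12 to 3.19 TPM in WT libraries. Its difference from WT was 3.23 (SE 0.37, adjusted p = 0.00313 in limma). Camp, the gene of the cathelicidin peptide, stood at 96.3, 64.8, 70.9 and 27.4 TPM in Rag2-/- and at 3.92 to 10.0 TPM in WT libraries (3.07, SE 0.39, adjusted p = 0.00479 in limma). Mmp9, gelatinase B, stood at 27.9, 37.5, 28.1 and 8.01 TPM in Rag2-/- libraries and at 0.672 to 2.39 TPM in WT libraries (3.31, SE 0.38, adjusted p = 0.00313 in limma). Chil3, the most abundant of the list, was at 6070 ± 3106 TPM in Rag2-/- and 1946 ± 670 in WT libraries and was not called (1.46, SE 0.45, adjusted p = 0.0957 in limma). Against WT, the calls of Ltf, Camp, Ngp, Mmp8 and Mmp9 held under every alternative that tested them, and Lcn2 was lost when WT replicate 2 or Rag2-/- replicate 2 or 3 was left out (adjusted p in limma up to 0.0629). Against NSG, Ltf and Ngp held throughout, whereas Camp, Mmp8 and Mmp9 were each lost when any of Rag2-/- replicates 1 to 3 or NSG replicate 2 was left out (adjusted p in limma up to 0.120, 0.113 and 0.160). Besides, all 3 were lost without a filter and in the 8 libraries alone, Camp and Mmp9 with the replicate block, Mmp8 and Mmp9 by voom, and Mmp9 with a pseudocount of 0.1, after median-ratio scaling and without a trend. Camp was also lost without NSG replicate 1, Mmp8 without NSG replicate 4, and Mmp9 without NSG replicate 1 or 4 or WT replicate 1 or 4. Rag2-/- replicate 4 was the lowest of its host for every gene of this list and for Ctsc. It was the highest for Mpo, Elane, Prtn3, Ctsg, Prss57, Srgn and Ms4a3, also where the hosts overlapped.

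**Figure D5:**
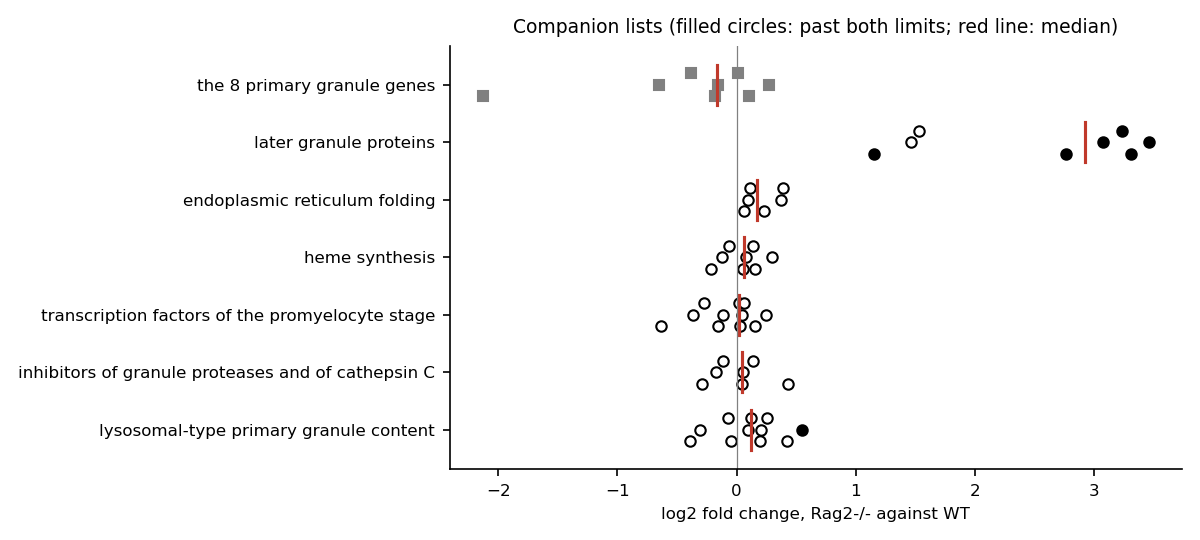
Log2 fold change (x axis) of Rag2-/- against WT libraries for each tested gene of the 6 companion lists and the 8 primary granule genes, with filled circles for companion genes past both limits, grey squares for the 8 primary granule genes and a red line at the median of each list. The later granule genes lay at a median of 2.92, and the other 5 companion lists between 0.02 and 0.17.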

How the data were processed

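The 12 RNA-seq libraries (4 from WT, 4 from Rag2-/- and 4 from NSG hosts) were used. The authors aligned the paired reads to mm10 with HISAT2 on Galaxy, took gene counts and deposited TPM calculated from them. The counting tool, annotation and gene lengths are not given in the sources used here. Of 55401 genes, 55141 were paired with GENCODE M21. From the deposited TPM, whole reads were recovered with GENCODE exon lengths, and 98.4% to 98.5% of the genes above 0 came out whole within 0.02 (4% by chance).

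Genes averaging 1 TPM or more (15026) were kept, and their log2(TPM + 1) was fitted over all 12 libraries with limma 3.58.1 in R 4.3.3 (eBayes with a trend), without a covariate. P-values were adjusted by the Benjamini-Hochberg method over all genes tested, and genes were called at an adjusted p-value under 0.05 and a log2 fold change beyond 0.5. The fit and the pair test were tested on simulated data. Fold changes on this scale understate those of low genes. Pairs of genes were tested within hosts by exact permutation (Python 3.11.15, numpy 2.4.6, scipy 1.17.1). Counting error was taken from read pairs, and the spread between libraries exceeded 1.5 times its size in 21 of 24 gene and host groups (not for Prtn3 and Ctsc in WT and Ms4a3 in Rag2-/-).

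The 8 genes, the companion lists, the marker lists and the tests were chosen with earlier results of these data known. Named were the 8 genes, companion genes called in any comparison (or the 2 most abundant of a list with fewer than 2 calls), the 5 genes most correlated with each, and the nearest coding gene on either side, of which some values are not reported here. Of the called later granule genes, 3 are given in full, chosen with their values known. Other settings tried were a pseudocount of 0.1, at least 1 TPM in every library, no filter, quantile normalization, median-ratio scaling, eBayes without a trend, each comparison fitted on its own 8 libraries, a block for the replicate number, calls by p-value alone, and each library left out. Chosen after seeing the data was voom on the recovered reads.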

Additional observations from a re-analysis of the deposited data

Results flagged for a closer look

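In 27 groups of 4 libraries (the 8 genes and their sum in each host), 1 library lay far from the other 3 in 3 groups by Dixon's criterion, which chance meets in about 1 in 20 groups. Elane in Rag2-/- replicate 4 lay above the other 3 libraries by 0.913 of the group's range, and Ms4a3 in the same library by 0.898. Ms4a3 in NSG replicate 3 lay below the other 3 by 0.891 of the range.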

How the results depend on the processing

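The limits are 4 libraries per host, values in TPM, and serially transplanted cells. Against WT, the 2 calls among the 8 genes held under the 9 alternatives other than leaving out a library, and voom left them at 2. Leaving out single libraries gave 0 to 2 calls, and against NSG 0 to 1, and voom called 1 (Mpo, −1.67). Without the limit on the fold change Prtn3 was called too, at −0.39. Of the medians of the 8 genes, 62 of 63 stayed within 0.0928 (1 SD) of the value given, and that against NSG ranged from −0.30 to −0.14 with a library left out.

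Genes called higher against WT numbered 172, and 91 without a filter, 309 without the limit on the fold change and 41 to 246 with a library left out. Those called lower numbered 49, and 23 without a filter, 116 in the 8 libraries alone, 111 without the limit, 98 by voom and 6 to 81 with a library left out. Against NSG, genes called higher numbered 29, and 13 with a pseudocount of 0.1, 5 without a filter, 16 after quantile normalization, 9 after median-ratio scaling, 15 without a trend, 4 in the 8 libraries alone, 47 by voom and 4 to 76 with a library left out. Those called lower numbered 3, and 1 with a pseudocount of 0.1, 12 by voom and 0 to 15 with a library left out. For NSG against WT, 2 genes were higher without a filter, 1 by voom and 0 to 1 with a library left out (lower 0 to 1).

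Of the companion genes, 1 was lower against WT without the limit on the fold change (Npc2). Against NSG, 5 were higher, and 3 with at least 1 TPM in every library, 2 without a filter, 2 in the 8 libraries alone and 2 to 8 with a library left out. Of the 28 pairs, 0 passed after median-ratio scaling, 17 when values were not centred on the host, and 0 to 3 with a library left out. The cause of these shifts was not tested.

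Same-numbered libraries did not deviate together (correlations from −0.0906 to 0.0318). Such correlations cannot show a pairing that acts on only some genes, so whether the numbers pair the libraries is not known. With the replicate block, 5 genes were higher and 0 lower against NSG, 3 companion genes were higher against NSG, 127 genes were higher and 38 lower against WT, and the calls among the 8 genes were the same.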
